A study of Mus musculus with 27 samples.

Results

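The caspases described here are 7 genes, Casp1, Casp2, Casp4, Casp6, Casp8, Casp9 and Casp12, chosen by name out of 22524 genes counted by RNA-seq in each of 27 mouse libraries. Caspases are cysteine proteases that cut their substrates after aspartate residues and are made as inactive precursors. The inflammatory caspases Casp1 and Casp4 (the mouse gene also called Caspase-11) start pyroptosis, a lytic death carried out by the pore-forming protein GSDMD, after a cytosolic sensor or bacterial lipopolysaccharide has activated them. Casp12 lies beside them in the genome and belongs to the same subfamily. The initiators Casp8 (death receptors), Casp9 (the APAF1 apoptosome) and Casp2 (the PIDD1 platform) and the executioner Casp6 act in apoptosis. In the intestinal epithelium both kinds of death remove infected or damaged cells, and Casp8 also restrains necroptosis.

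Organoids were grown in Matrigel from distal jejunal crypts of 9 adult male C57BL/6 mice, with 3 cohoused littermates from each of 3 facilities, of which SR and SE are specific pathogen-free (SPF) and GF is germ-free. m-ICc12 is an immortalised line of mouse small intestinal epithelial cells, so its 3 cultures are repeats of 1 line. Each of the 12 cultures gave 1 library labelled untreated and 1 labelled as given tumour necrosis factor (TNF) at 5 ng/mL over 8 hr, and mouse embryonic fibroblasts (MEFs) gave 3 untreated libraries. No genetic change is given in the labels for any group, and the labels name no source of the MEFs. The totals per library lay between 6071103 and 43843615 counts, where 3 counts, the floor used for detection, correspond to 0.0684 to 0.494 CPM (counts per 1000000 counted reads), which covers counting error only.

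The treatment labels and the data go against each other. Counts were scaled with TMM, which corrects library sizes for composition, and compared with edgeR's quasi-likelihood test on genes that reached 10 counts in 50% or more of the libraries of a group, and a gene is called when its p, adjusted by Benjamini-Hochberg over all genes tested, is under 0.05. In all 12 cultures, the data deposited for the sample labelled untreated carry a name code ending in T, and those of the sample labelled TNF-treated carry the code without it. Nfkbia, the inhibitor of NF-kB that NF-kB itself induces, was higher by 2.66 on the log2 scale in the organoid libraries labelled untreated (edgeR, adjusted p = 6.4e-17) and by 2.13 in the m-ICc12 libraries with this label (edgeR, adjusted p = 0.0004). The other NF-kB targets Nfkb2, Relb and Tnfaip3 were also called higher under that label in both cell types. Each library is therefore named by its label, and every treatment difference is given as labelled untreated minus labelled TNF-treated.

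The labelled cell types were compared with marker genes. The summed level of 10 intestinal epithelium markers lay between 3756 and 4199 CPM in the organoid libraries and between 4.59 and 8.33 CPM in MEFs. In m-ICc12 cells it lay between 526.1 and 764 CPM, of which Krt20 alone made 479 to 712 CPM, whereas Epcam was at 2.06 to 7.14 CPM and Cdh1 at 0.936 to 6.79 CPM, close to the MEFs at 1.00 to 1.95 and 1.00 to 1.80 CPM. Vil1 was at 17.3 to 41.1 CPM in m-ICc12 cells against 0.878 to 1.83 CPM in MEFs. Krt20 and Vil1 were the markers called higher in the m-ICc12 libraries labelled untreated than in MEFs by edgeR. They were 2 of the 7 markers that met the count filter in both groups, with 0 called lower. Of all 10804 such genes 26.4% were called higher and 28.8% lower. The fibroblast markers summed to 12.4 to 32.4 CPM in organoids, 1843 to 3003 CPM in m-ICc12 cells, nearly all of it Vim, and 5766 to 6944 CPM in MEFs. Leukocytes express inflammatory caspases strongly, and the 8 leukocyte markers summed to 4.01 to 19.9 CPM in organoids, where Adgre1 was at 0 in all libraries and Ptprc reached 0.143 CPM. Itgam, a myeloid integrin gene, was at 0.267 to 9.62 CPM in the organoid libraries labelled untreated (median 5.93), whereas it was at 0 in the m-ICc12 libraries with this label and reached 0.151 CPM in MEFs. Csf1r reached 5.81 CPM, Cd68 4.78 CPM and Lyz2 4.44 CPM in single organoid libraries, and the part of leukocytes in the caspase levels was not tested. In m-ICc12 cells they summed to 74.9 to 144 CPM, of which Csf1r made 64.5 to 138 CPM.

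Casp1, Casp4 and Casp12 lie next to each other on the plus strand of chromosome 9 in GRCm38, at 5298517 to 5307265, 5308828 to 5336783 and 5345430 to 5373032. Casp2 lies on chromosome 6 (42264985 to 42282508), Casp8 on chromosome 1 (58795374 to 58847503), Casp9 on chromosome 4 (141793612 to 141815976) and Casp6 on chromosome 3 (129901425 to 129914103), all on the plus strand. The longest run of bases that transcripts of any pair of members shared was 21, between Casp4 and Casp12. Casp9 shares 94 bases of exon with the pancreatic protease genes Cela2a and Ctrc on the opposite strand, which had 0 to 29 counts in every library.

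The 250 bases before the transcript start are shown for the 3 neighbours on chromosome 9, the inflammatory subfamily, and for Casp9 as an apoptotic member. The sequences are those of RefSeq on GRCm38.p6, plus strand, 5′ to 3′, for chr9:5298267-5298516 (Casp1), chr9:5308599-5308848 (Casp4, the first of its 2 RefSeq starts), chr9:5345226-5345475 (Casp12) and chr4:141793362-141793611 (Casp9). Capitals mark matches to the motifs searched: NF-kB in Casp4, the interferon-gamma activated site (GAS) in Casp12 and the GC box in Casp9.
Casp1: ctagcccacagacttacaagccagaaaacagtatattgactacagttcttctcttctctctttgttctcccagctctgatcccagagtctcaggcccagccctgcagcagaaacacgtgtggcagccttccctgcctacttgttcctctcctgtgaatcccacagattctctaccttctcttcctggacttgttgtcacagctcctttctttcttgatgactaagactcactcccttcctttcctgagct
Casp4: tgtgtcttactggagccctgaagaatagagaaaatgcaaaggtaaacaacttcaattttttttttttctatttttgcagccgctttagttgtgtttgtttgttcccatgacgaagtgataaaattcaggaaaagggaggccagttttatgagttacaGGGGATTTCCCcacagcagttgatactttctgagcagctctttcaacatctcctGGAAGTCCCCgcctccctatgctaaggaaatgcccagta
Casp12: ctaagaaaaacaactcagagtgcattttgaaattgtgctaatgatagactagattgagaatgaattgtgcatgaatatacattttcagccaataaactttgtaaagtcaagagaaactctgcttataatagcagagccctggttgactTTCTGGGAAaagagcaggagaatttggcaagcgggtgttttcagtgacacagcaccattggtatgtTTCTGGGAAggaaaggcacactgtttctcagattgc
Casp9: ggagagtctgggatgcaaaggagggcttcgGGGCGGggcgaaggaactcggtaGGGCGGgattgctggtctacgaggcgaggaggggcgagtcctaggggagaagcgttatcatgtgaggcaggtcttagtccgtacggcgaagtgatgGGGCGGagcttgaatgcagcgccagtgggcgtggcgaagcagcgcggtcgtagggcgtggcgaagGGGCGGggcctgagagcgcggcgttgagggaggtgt

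The motifs searched on both strands were the NF-kB consensus, the core of the interferon-stimulated response element, GAS (TTCNNNGAA), AP-1 (TGANTCA), the TATA box (TATAAA) and the GC box (GGGCGG). Casp4 was the only member with NF-kB matches, at GGGGATTTCC and GGGATTTCCC, which overlap in 1 run 93 to 83 bases before the start, and at GGAAGTCCCC 39 to 30 bases before it, read on the minus strand. Of 32851 mouse promoter windows of this length, 7.25% held an NF-kB match. Casp12 held the GAS match TTCTGGGAA at 102 to 94 and at 36 to 28 bases, and 7.02% of the windows held one. Casp9 held 4 GC boxes, Casp2 and Casp6 held 1 each, and 32.7% of the windows held one. No match was found in the windows of Casp1 and Casp8. The Casp8 window, chr1:58802252-58802501, precedes its RefSeq start but lies inside the gene span of 58795374 to 58847503. The bases before the outer end of that span were not searched. The windows of Casp4 and Casp12 also run past the outer ends of their gene spans, at 5308828 and 5345430. The Casp12 match at 36 to 28 bases thus lies inside its gene span. The GC content was 49.2% for Casp1, 41.6% for Casp4, 39.2% for Casp12, 39.6% for Casp8, 58.4% for Casp6, 60.4% for Casp2 and 66% for Casp9, with a median of 52.4% over all windows. CpG sites numbered 1 to 5 in the windows of the chromosome 9 genes and Casp8, and 11 to 25 in those of Casp6, Casp2 and Casp9.

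**Figure D1:**
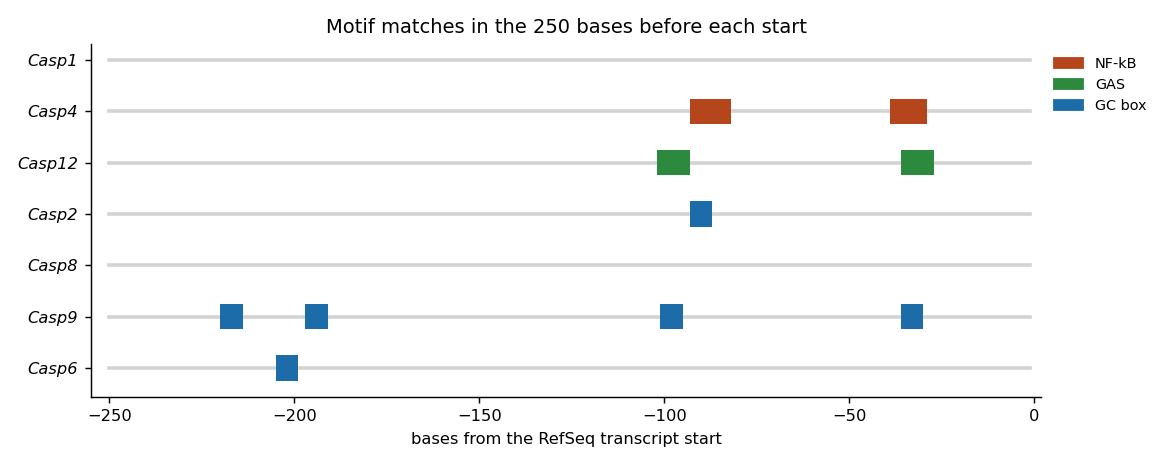
Positions of motif matches in the 250 bases before the RefSeq start of each caspase gene. The horizontal axis is the distance from the start in bases and coloured blocks are matches on either strand. NF-kB matches are seen only for Casp4, GAS matches only for Casp12 and GC boxes for Casp2, Casp9 and Casp6.

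Levels within a group were compared between genes per kb of exon. In the organoid libraries labelled untreated, Casp1 was highest (median 63.9 CPM per kb, range 60.2 to 81.9) and its range lay above that of every other member. Casp8 followed at 35.2 CPM per kb (25.2 to 40.4), and then Casp4 at 13.6, Casp2 at 10.5, Casp9 at 6.16 and Casp6 at 4.88 CPM per kb. From Casp4 down to Casp6 each neighbour in this order overlapped the next, and Casp12 had a median of 0. In the organoid libraries labelled TNF-treated, Casp1 (60.2 CPM per kb) and Casp8 (30.7) kept the first places, and Casp4 stood sixth at 4.18 CPM per kb. In m-ICc12 cells the order was led by Casp8, at 34.6 CPM per kb labelled untreated and 27.5 labelled TNF-treated, and Casp1 was at 3.06 and 2.56 CPM per kb. MEFs were led by Casp8 (16.2 CPM per kb) and Casp2 (6.80), and Casp1 was lowest at 0.0838 CPM per kb. The order below the leading members depends on the length used: with the longest coding transcript, Casp6 in MEFs moved from the fifth place to the third.

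The chromosome 9 genes together made 55.9% to 64.2% of the summed level per kb of the 7 caspases in the organoid libraries labelled untreated (median 58.7%) and 50.4% to 58.5% in those labelled TNF-treated. The same share was 9.04% to 16.1% and 3.47% to 9.07% in the m-ICc12 libraries with these labels, and 6.95% to 14.7% in MEFs. It stands for different genes: in MEFs the medians were 2.73 CPM per kb for Casp12, 0.129 for Casp4 and 0.0838 for Casp1. In organoids Casp12 had a median of 0. No organoid library overlapped a library of the other cell types in this share.

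**Figure D2:**
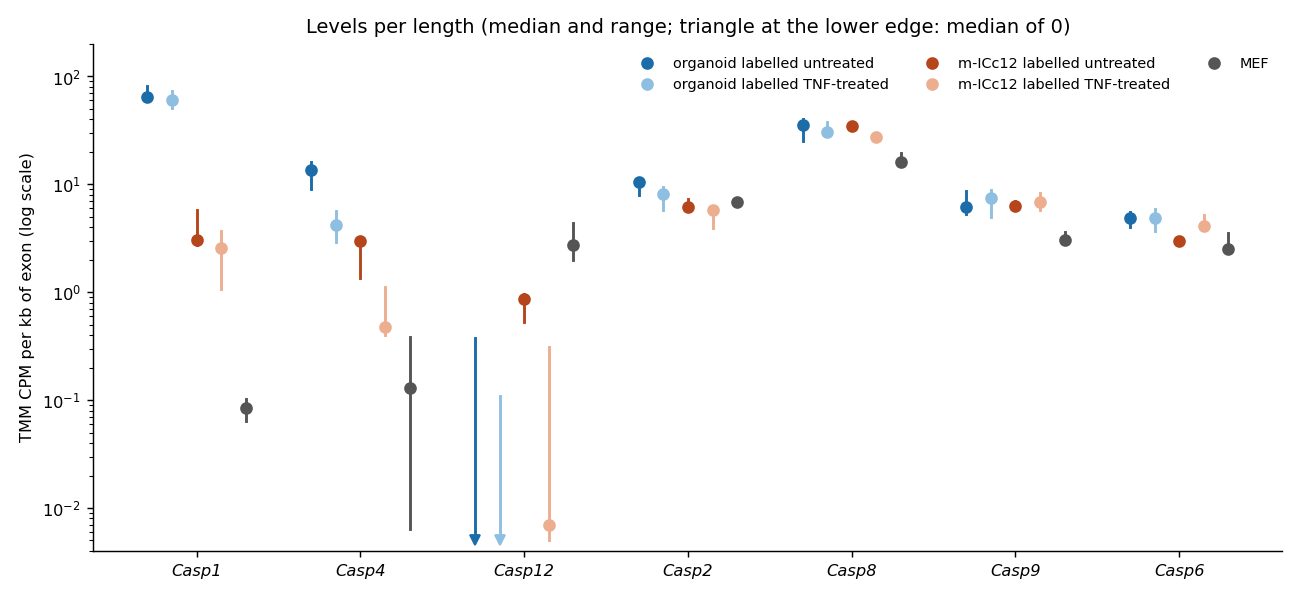
Level of each caspase in TMM-normalized CPM per kb of exon on a log axis, with the median (point) and the range (line) of each group. Casp1 runs from a median of 63.9 in organoids labelled untreated to 0.0838 in MEFs, whereas Casp8 stays between 16.2 and 35.2.

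Casp4 separated the treatment labels in organoids. In the SR cultures it was at 33.3, 60.3 and 49.4 CPM in the libraries labelled untreated and at 11.3, 16.9 and 12.4 CPM in those labelled TNF-treated, in the order of the cultures Z908, Z909 and Z910. In the SE cultures Z911, Z912 and Z913 it was at 55.5, 40.8 and 53.9 CPM against 21.0, 10.9 and 15.5 CPM. In the GF cultures Z917, Z918 and Z919 it was at 59.6, 49.03 and 50.6 CPM against 21.0, 15.8 and 15.4 CPM. All 9 cultures were higher in the library labelled untreated, by 2.64- to 3.99-fold within a culture (median 3.29), and the label groups did not overlap. How many of all genes separate the labels in this way was not counted. The log2 difference of Casp4 was 1.70 (SE 0.15, adjusted p = 1.7e-08 by edgeR's quasi-likelihood test over 12104 genes). Casp4 was the only one of the 6 members tested that was called, and 1.39% of all genes tested were called in this comparison (168 genes, and 397 when the fit held the culture as a block).

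The other members differed less between these labels. Casp2 had a median of 74.0 CPM (56.1 to 78.6) labelled untreated and 57.1 CPM (41.2 to 66.6) labelled TNF-treated, was higher under the first label in 8 of 9 cultures (median ratio 1.17), and did not pass the test (log2 difference 0.29, SE 0.11, edgeR adjusted p = 0.31). Its unadjusted p in edgeR was 0.0107, and 1072 of the 12104 genes tested had an unadjusted p under 0.05. Casp1 had a median of 95.7 CPM (90.1 to 122.6) against 90.2 CPM (76.1 to 108.8), with 6 of 9 cultures higher (log2 difference 0.14, SE 0.08, edgeR adjusted p = 0.67). Casp1 and Casp4, although neighbours, thus gave label differences of 0.14 and 1.70 in the same libraries. Casp8 had a median of 101.9 CPM (72.8 to 116.7) against 88.9 CPM (83.4 to 110.2), a log2 difference of 0.11 (SE 0.09). Casp9 had a median of 32.0 CPM (27.7 to 45.4) against 38.5 CPM (25.7 to 45.6), and Casp6 of 27.3 CPM (22.6 to 30.7) against 27.2 CPM (20.7 to 32.7), with log2 differences of −0.04 (SE 0.13) and −0.00028 (SE 0.12). The ranges of the label groups overlapped for each of these 5 genes. Casp12 was not tested in organoids, since 14 of 18 libraries had 0 counts of it.

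**Figure D3:**
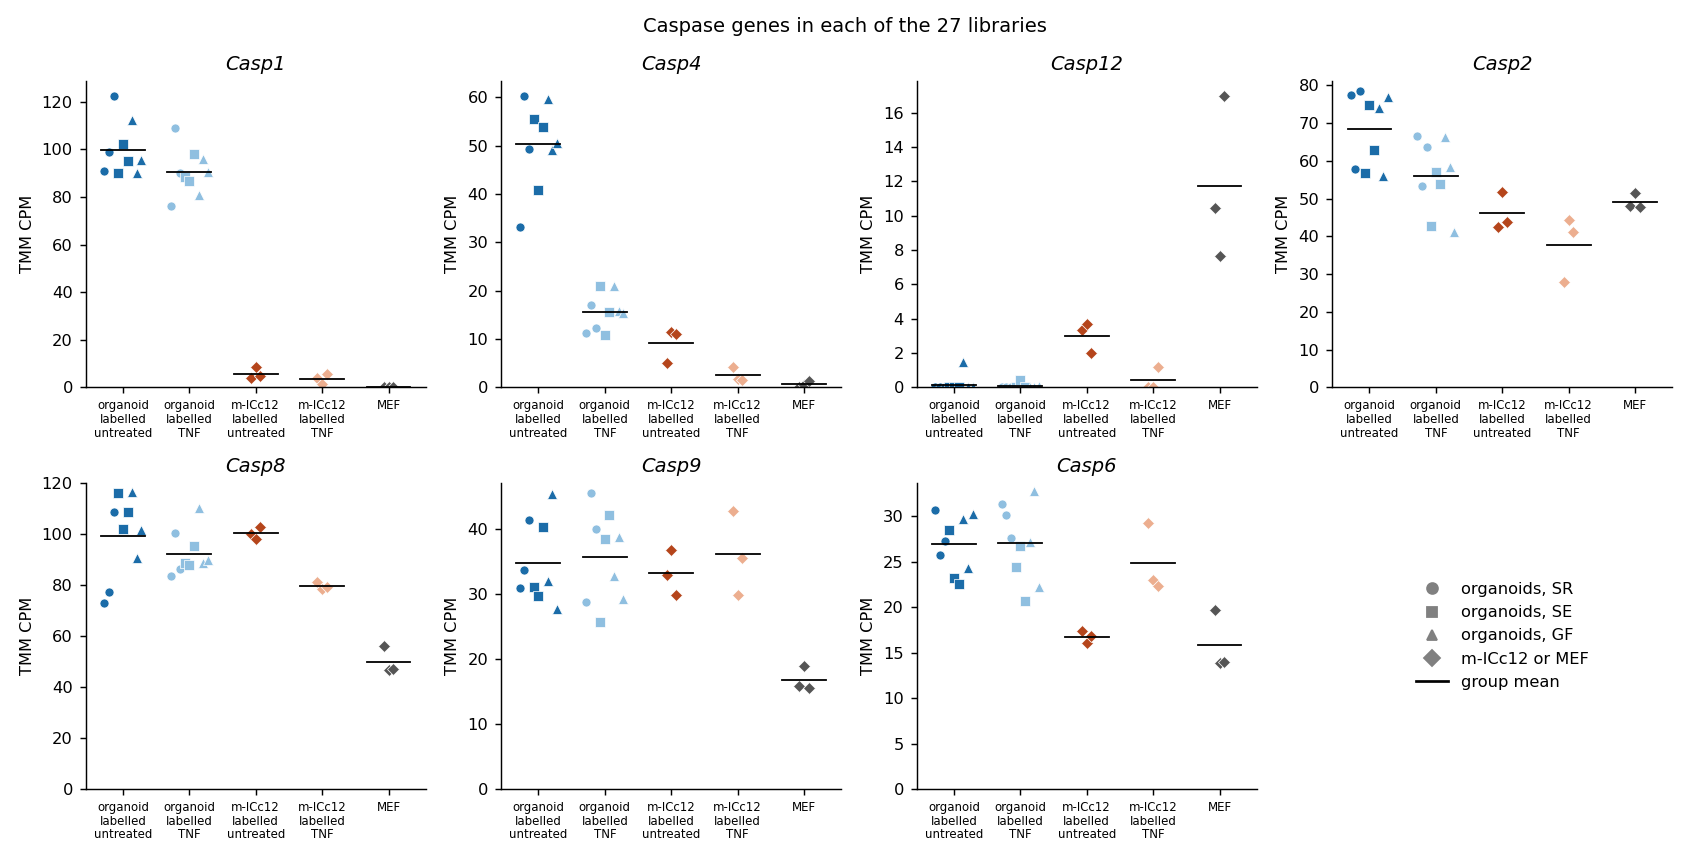
TMM-normalized CPM of each caspase in the 27 libraries, 1 panel per gene, with circles for SR, squares for SE and triangles for GF organoids, diamonds for m-ICc12 cells and MEFs, and a line at the group mean. The organoid libraries labelled untreated lie between 33.3 and 60.3 CPM for Casp4, all above those labelled TNF-treated at 10.9 to 21.0 CPM.

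In m-ICc12 cells none of the 7 members was called between the labels in edgeR, where 0.11% of the genes tested were called (13 of 11861). At an unadjusted p under 0.05 there were 3 of the 7 members, Casp4, Casp6 and Casp12, and 556 of the 11861 genes. Casp12 met the count filter only through the libraries labelled untreated. DESeq2 called 0 members. Casp4 was at 5.05, 11.4 and 11.1 CPM in the cultures M1, M2 and M3 labelled untreated and at 4.18, 1.77 and 1.49 CPM labelled TNF-treated, ratios of 1.21, 6.44 and 7.48. The culture numbers did not pair the libraries of these cells, whose deviations from the group means correlated with r = 0.00732, −0.00667 and 0.0925. Ratios and counts by culture number in these cells are therefore descriptions. The ratio of M1 stood apart from the other 2, and its library labelled TNF-treated was the shallowest of the series, with 24 counts of Casp4. The log2 difference was 1.95 (SE 0.59, edgeR adjusted p = 0.61), and without M1 it was 2.78 (edgeR adjusted p = 0.024), which is then a call.

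Casp6 was at 17.4, 16.0 and 16.8 CPM in the m-ICc12 libraries labelled untreated and at 29.2, 23.0 and 22.4 CPM in those labelled TNF-treated, lower under the first label in 3 of 3 cultures (log2 difference −0.58, SE 0.26, edgeR adjusted p = 1.00). Casp8 was at 100.2, 98.2 and 103.0 CPM against 81.3, 78.5 and 79.4 CPM, higher in 3 of 3 cultures (log2 difference 0.32, SE 0.16, edgeR adjusted p = 1.00). The label groups of Casp6 and Casp8 did not overlap, nor did those of Casp4 in these cells, but none of these genes passed the test over all genes. Those of Casp12 did not overlap either, but it met the count filter only through the libraries labelled untreated. The share of all genes whose label groups do not overlap was not counted. With 3 libraries per label, the separation is therefore only a description. Casp12 was at 3.33, 3.71 and 2.02 CPM against 0, 0.0268 and 1.2 CPM, and Casp1 at 4.12, 8.71 and 4.58 CPM against 3.83, 1.61 and 5.52 CPM. By culture number, which did not pair these libraries, Casp12 was thus higher under the first label in all 3 cultures, and Casp1 in 2 of 3. Casp2 lay between 42.5 and 51.8 CPM against 27.9 and 44.5 CPM, and Casp9 between 29.8 and 36.7 CPM against 29.9 and 42.8 CPM, both with overlapping ranges.

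Whether the label difference itself varied between organoids and m-ICc12 cells was tested as an interaction. No member was called in edgeR (0.159% of 13183 genes were), and none was called by DESeq2. At an unadjusted p under 0.05 in edgeR there were 1 member, Casp6, and 857 of all genes tested. For Casp4 the interaction was −0.34 (SE 0.40, edgeR adjusted p = 1.00), and for Casp6, with label differences of −0.00028 and −0.58, it was 0.56 (SE 0.23, edgeR adjusted p = 0.65). The interaction of label with germ-free origin was −0.13 (SE 0.31) for Casp4. In that comparison 0.0% of genes were called by edgeR, with 323 genes at an unadjusted p under 0.05 and 1 gene called by DESeq2.

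**Figure D4:**
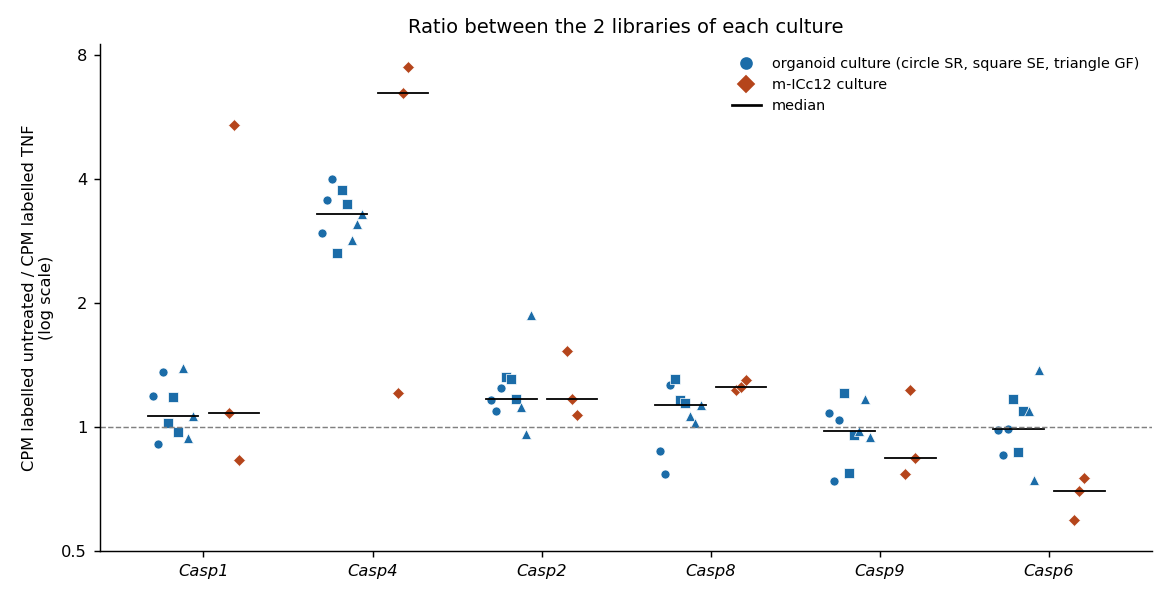
Ratio of CPM in the library labelled untreated to CPM in the library labelled TNF-treated of the same culture, on a log axis, for organoids and m-ICc12 cells, with the median as a line. Casp12 is left out because many of its libraries are at 0. The 9 organoid cultures lie between 2.64 and 3.99 for Casp4, and the 3 m-ICc12 cultures below 1 for Casp6. The culture numbers did not pair the m-ICc12 libraries, so the ratios of these cells are descriptions.

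The cell types were compared in the libraries labelled untreated, and again in those labelled TNF-treated, since the labels are in doubt. Each value is for RNA of a whole culture, in which fewer cells of a type and less RNA per cell cannot be told apart. Casp1 against MEFs and Casp12 against organoids passed the filter on low counts only through the group in which they were high, so their differences there are given as descriptions. Counts of called genes are given over the genes that met the filter in both groups. Between organoids and m-ICc12 cells these were 6 members, of which 4 were called higher in organoids and 0 lower, where 28.3% of 10619 genes were called higher and 27.9% lower. With the libraries labelled TNF-treated, 3 of 6 members were called, Casp1, Casp4 and Casp2, all higher in organoids, where 30.6% of 10441 genes were called higher and 31.6% lower. Between organoids and MEFs 5 of 5 members were called higher in organoids, where 32.1% of 10559 genes were called higher and 31.3% lower. With the organoid libraries labelled TNF-treated against the same MEFs, 4 of 5 members were called higher and 0 lower. Of all 10592 such genes 33.8% were called higher and 34.4% lower. Between m-ICc12 cells and MEFs, 3 of 6 members were called higher in m-ICc12 cells and 1 lower, where 26.4% of 10804 genes were called higher and 28.8% lower. With the m-ICc12 libraries labelled TNF-treated, Casp12 met the filter only through the MEFs, and 3 of 5 members were called higher and 0 lower. Of all 10607 such genes 26.1% were called higher and 25.7% lower.

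Casp1 ranged from 90.1 to 122.6 CPM in organoids labelled untreated, was at 4.12, 8.71 and 4.58 CPM in m-ICc12 cells and at 0.0950, 0.126 and 0.153 CPM in MEFs, which rest on 4, 5 and 4 counts. The 3 ranges did not overlap. The log2 difference was 4.12 between organoids and m-ICc12 cells (SE 0.24, edgeR adjusted p = 2.2e-10), and with the libraries labelled TNF-treated it was 4.69 and was also called. Against MEFs the fitted log2 differences were 9.66 for organoids and 5.49 for m-ICc12 cells. These sizes rest on the few MEF counts and are given without a test.

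Casp4 followed the same order. It was at 33.3 to 60.3 CPM in organoids, at 5.05 to 11.4 CPM in m-ICc12 cells and at 0.0237, 0.477 and 1.41 CPM (1, 19 and 37 counts) in the MEF libraries, which differed widely among themselves. The log2 difference was 2.47 between organoids and m-ICc12 cells (SE 0.27, edgeR adjusted p = 5.4e-07), 6.43 between organoids and MEFs (SE 0.61, edgeR adjusted p = 1.1e-07) and 3.85 between m-ICc12 cells and MEFs (SE 0.88, edgeR adjusted p = 0.0023). With the libraries labelled TNF-treated the third difference was 1.94 and was not called (SE 1.198, edgeR adjusted p = 0.19), while the first stood at 2.75 and the second at 4.67.

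Casp12 ran the other way. It was highest in MEFs, at 10.5, 7.65 and 17.0 CPM, lower in the m-ICc12 libraries labelled untreated at 3.33, 3.71 and 2.02 CPM, and at 0 in 7 of the 9 organoid libraries with this label. The other 2 were at 0.0343 CPM (Z909) and 1.46 CPM (Z917). Z917 also had the highest summed fibroblast markers of the organoid libraries, 32.4 CPM against 13.9 to 31.0 CPM in the others with its label. Among the organoid libraries labelled untreated, Pdgfrb was at 7.16 to 15.8 CPM and Vim at 4.22 to 15.6 CPM. Col1a1 reached 4.57 CPM and Col1a2 4.53 CPM there, against 1797 to 2401 and 1384 to 1820 CPM in MEFs. The part of these markers in the Casp12 level of Z917 was not tested. The log2 difference of Casp12 was −2.01 between m-ICc12 cells and MEFs (SE 0.43, edgeR adjusted p = 0.0014). The fitted values were −6.04 between organoids and MEFs and −4.10 between organoids and m-ICc12 cells. These sizes rest on the 2 organoid libraries above 0, moved to −10.32 and −8.40 when Z917 was left out, and are given without a test.

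Among the apoptotic members, Casp8 was at 72.8 to 116.7 CPM in organoids and 98.2 to 103.0 CPM in m-ICc12 cells, with a log2 difference of 0.0057 (SE 0.14). In MEFs it was at 56.1, 46.6 and 46.9 CPM, below every library of the other cell types. Organoids were above MEFs by 1.01 (SE 0.15, edgeR adjusted p = 2.6e-05) and m-ICc12 cells by 0.96 (SE 0.14, edgeR adjusted p = 8.6e-05). Casp9 showed the same order, at 27.7 to 45.4 CPM in organoids, 29.8 to 36.7 CPM in m-ICc12 cells and 15.9, 18.9 and 15.6 CPM in MEFs. Its log2 difference was 0.08 between organoids and m-ICc12 cells (SE 0.18), 1.06 between organoids and MEFs (SE 0.19, edgeR adjusted p = 0.00016) and 0.94 between m-ICc12 cells and MEFs (SE 0.20, edgeR adjusted p = 0.0013). For both genes the first of these differences was smaller than its standard error.

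Casp2 was at 56.1 to 78.6 CPM in organoids, 42.5 to 51.8 CPM in m-ICc12 cells and 48.0, 51.4 and 47.7 CPM in MEFs. Organoids were higher than m-ICc12 cells by 0.59 (SE 0.15, edgeR adjusted p = 0.0028) and than MEFs by 0.49 (SE 0.14, edgeR adjusted p = 0.0061). The second call was lost with the libraries labelled TNF-treated (0.19, edgeR adjusted p = 0.26). Casp6 was at 22.6 to 30.7 CPM in organoids, 16.0 to 17.4 CPM in m-ICc12 cells and 19.7, 13.9 and 14.0 CPM in MEFs. Organoids were higher than m-ICc12 cells by 0.71 (SE 0.19, edgeR adjusted p = 0.0035) and than MEFs by 0.78 (SE 0.20, edgeR adjusted p = 0.0023), while m-ICc12 cells and MEFs differed by 0.03 (SE 0.24). With the libraries labelled TNF-treated, Casp6 differed by 0.12 between organoids and m-ICc12 cells (edgeR adjusted p = 0.56) and by 0.64 between m-ICc12 cells and MEFs (edgeR adjusted p = 0.048). The order of m-ICc12 cells for Casp6 thus depended on the label set used.

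**Figure D5:**
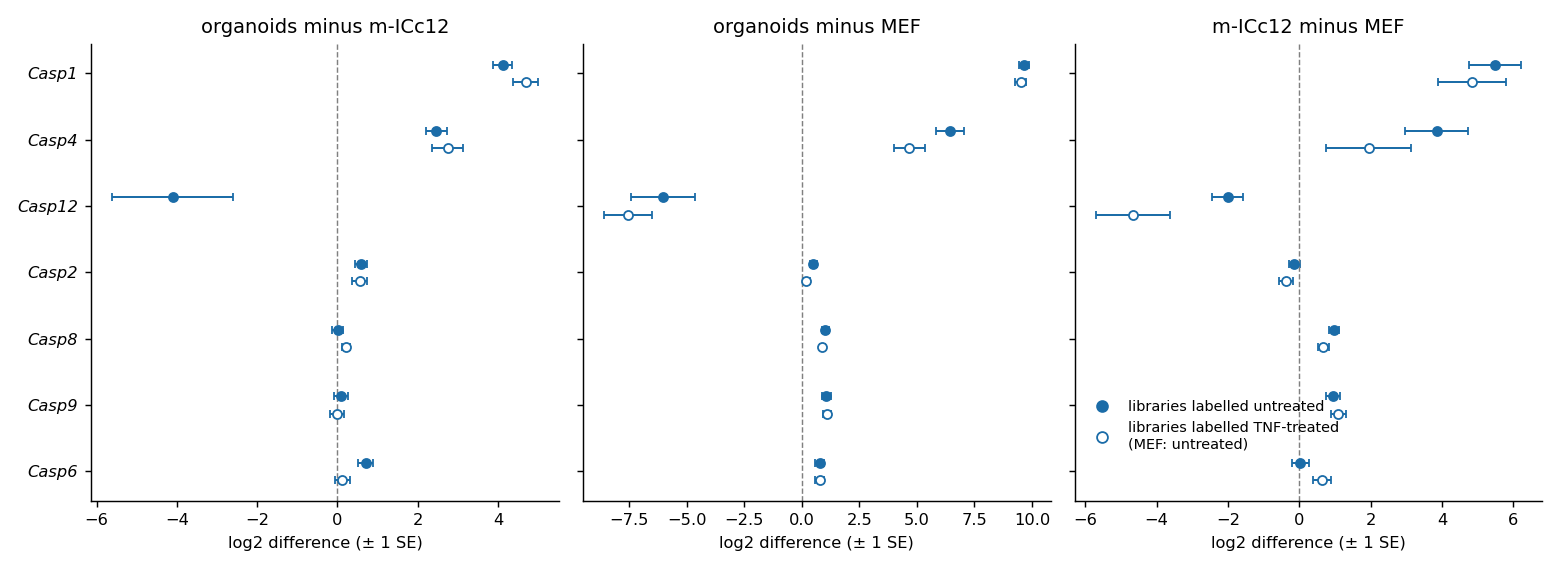
Log2 difference of each caspase between cell types, with 1 SE from edgeR, for the libraries labelled untreated (filled) and labelled TNF-treated (open, with the same MEF libraries). Casp1 lies at 4.12, 9.66 and 5.49 and Casp12 at −4.10, −6.04 and −2.01 in the libraries labelled untreated, where Casp1 against MEFs and Casp12 against organoids met the count filter in 1 group only. Casp12 was not fitted between organoids and m-ICc12 cells labelled TNF-treated.

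The origin of the organoids was compared in the libraries labelled untreated. Casp4 was at 49.03 to 59.6 CPM in GF, 33.3 to 60.3 CPM in SR and 40.8 to 55.5 CPM in SE organoids, with a log2 difference of 0.11 between GF and SPF organoids (SE 0.19). Casp1 was at 90.2 to 112.2 CPM in GF, 90.7 to 122.6 CPM in SR and 90.1 to 102.1 CPM in SE organoids, with a log2 difference of −0.02 (SE 0.14). The ranges overlapped between facilities for both genes. Casp8 was at 72.8, 77.2 and 108.9 CPM in SR and at 116.0, 101.9 and 108.6 CPM in SE organoids, and its log2 difference of −0.33 (SE 0.18) did not pass the test (unadjusted p = 0.088, adjusted p = 1.0 in edgeR). None of the 6 members tested was called or had an unadjusted p under 0.05 in either comparison. Between GF and SPF organoids 0.0325% of all genes were called by edgeR (4 of 12315), with 491 genes at an unadjusted p under 0.05. Between SR and SE organoids 0.0% were called by edgeR, with 486 genes at an unadjusted p under 0.05 and 8 called by DESeq2.

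The coefficient of variation between the organoid cultures of 1 label was lower than the median of all genes for 6 members in the libraries labelled untreated, and not for Casp12. It was 11.1% for Casp1, 17.4% for Casp4, 14.3% for Casp2, 16.1% for Casp8, 17.7% for Casp9, 11.5% for Casp6 and 292% for Casp12, against a median of 22.0% over 11825 genes. That median takes in genes of all levels above the count filter, and genes matched to the members in level were not compared. In the libraries labelled TNF-treated it was 10.6% for Casp1, 16.6% for Casp2, 9.10% for Casp8 and 15.02% for Casp6, against a median of 18.8%. Casp4 (24.0%), Casp9 (19.1%) and Casp12 (262%) were above that median. After the label means were removed, the Pearson correlation over the 18 organoid libraries was highest between Casp2 and Casp6 (0.525) and between Casp4 and Casp8 (0.503), and lowest between Casp4 and Casp2 (−0.417). These values describe libraries that share cultures 2 by 2. Over the same libraries, with the label differences kept in, the genes most like Casp4 were H2-M2 (r = 0.944), Ikbke (0.940) and Tcim (0.923), among 12839 genes. For Casp1 they were Ttpal (0.757), Prpf6 (0.751) and Clta (0.744), for Casp2 H60b (0.803), for Casp8 Dapk2 (0.871), for Casp9 Txndc17 (0.895) and for Casp6 Itgb3bp (0.775). The first gene named for each member has the largest r among 12839 genes over 18 libraries. How large this r would be for unrelated genes was not tested.

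The genes of platforms that activate the inflammatory caspases were compared in the libraries labelled untreated. Of 8 listed inflammasome genes, 2 met the count filter in both organoids and m-ICc12 cells, Pycard and Nlrp6, and both were called higher in organoids, where 28.3% of genes were. Aim2, Nlrc4 and Nlrp1b met the filter only through the organoids. Against MEFs, Aim2, Nlrp6 and Pycard met it in both groups and were called higher, where 32.1% of genes were, while Nlrc4 and Nlrp1b met it only through the organoids and Nlrp3 only through the MEFs. Pycard, the ASC adaptor that recruits Casp1, was at 214 to 285 CPM in organoids, 0.216 to 0.905 CPM in m-ICc12 cells and 0.100 to 0.458 CPM in MEFs. Nlrc4, the partner of the NAIP sensors of bacterial flagellin and secretion systems, was at 35.6 to 67.9 CPM in organoids, and in MEFs no library had more than 3 counts of it. Nlrp6, a sensor gene known from the gut epithelium, was at 261 to 329, 0.936 to 8.16 and 0.285 to 0.677 CPM in the same 3 groups. Nlrp3 had 0 counts in the organoid and m-ICc12 libraries labelled untreated and at most 25 counts in a MEF library, and Nlrp1a and Mefv were at 0 throughout. With the libraries labelled TNF-treated, Nlrp6 was the 1 gene that met the filter in both organoids and m-ICc12 cells. It was called higher in organoids, where 30.6% of genes were. Against MEFs, Aim2, Nlrp6 and Pycard were again called higher, where 33.8% of genes were. Between the treatment labels in organoids none of the 5 inflammasome genes tested was called by edgeR, where 1.39% of all genes were.

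Gsdmd, the substrate of Casp1 and Casp4 that forms the pore, had a median of 28.8 CPM (12.2 to 44.1) in the organoid libraries labelled untreated and of 7.48 CPM (6.74 to 13.1) in those labelled TNF-treated (log2 difference 1.71, edgeR adjusted p = 1.3e-05). It reached at most 5 counts in any m-ICc12 library, and was at 5.18, 5.92 and 10.2 CPM, from lowest to highest, in MEFs. Bid, which Casp8 cuts to pass the death signal to mitochondria, had a median of 31.5 CPM (21.2 to 52.0) against 22.2 CPM (14.9 to 24.7) between the organoid labels (log2 difference 0.65, edgeR adjusted p = 0.021). These were the 2 called genes of 9 tested among 10 substrates and effectors, both higher under the label untreated, where 1.39% of all genes were called. In the libraries labelled untreated, 7 met the filter in both organoids and m-ICc12 cells, with 3 called higher in organoids and 3 lower (28.3% and 27.9% over all such genes). Against MEFs, 4 of 9 were called higher and 3 lower (32.1% and 31.3%). With the libraries labelled TNF-treated these counts were 3 higher and 3 lower of 7 (30.6% and 31.6%), and 4 higher and 2 lower of 9 (33.8% and 34.4%). Gsdmd and Il18 met it only through the organoids against m-ICc12 cells. The cytokine precursor gene Il18, a Casp1 substrate, varied from 0.152 to 8.80 CPM in organoids and had at most 1 count in the m-ICc12 libraries labelled untreated, and Il1b was at 0 in all 27 libraries.

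Of 10 apoptotic platform and adaptor genes, all were tested and none was called between the labels in either cell type, where 1.39% of all genes were called in organoids and 0.11% in m-ICc12 cells. With the libraries labelled TNF-treated, 3 of the 9 that met the filter in both groups were called higher and 4 lower in organoids than in m-ICc12 cells (30.6% and 31.6% over all such genes). Against MEFs 5 of 10 were called higher and 3 lower (33.8% and 34.4%). In the libraries labelled untreated, to which the values below belong, 2 were called higher and 3 lower in organoids than in m-ICc12 cells (28.3% and 27.9%). Against MEFs 5 were called higher and 3 lower (32.1% and 31.3%). Apaf1, the scaffold of Casp9, was at 34.4 to 52.3 CPM in organoids and 84.7 to 94.7 CPM in m-ICc12 cells (log2 difference −0.98, edgeR adjusted p = 5.5e-06). Fadd, the adaptor of Casp8, was at 20.9 to 65.4 CPM in organoids and 12.4 to 20.3 CPM in m-ICc12 cells (log2 difference 1.17, edgeR adjusted p = 0.0032). Casp9 and Casp8 themselves differed by 0.08 and 0.0057 in this comparison.

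Among 8 inhibitors of caspases and their antagonists, Birc3 was the only one of 7 tested that was called between the organoid labels, where 1.39% of all genes were. Birc3, which encodes the ubiquitin ligase cIAP2, had a median of 64.1 CPM (48.9 to 75.1) against 33.3 CPM (16.5 to 38.5), a log2 difference of 1.07 (edgeR adjusted p = 3.5e-05). With the libraries labelled TNF-treated, 2 of the 7 that met the filter in both groups were called higher and 2 lower in organoids than in m-ICc12 cells (30.6% and 31.6% over all such genes). Against MEFs 1 of 7 was called higher and 2 lower (33.8% and 34.4%). In the libraries labelled untreated, to which the values below belong, 2 of 7 were called higher and 2 lower than in m-ICc12 cells (28.3% and 27.9%). Against MEFs also 2 of 7 were called higher and 2 lower (32.1% and 31.3%). Sept4, whose product antagonises the inhibitor XIAP, was at 34.4 to 62.6 CPM in the m-ICc12 libraries labelled untreated and reached 0.912 CPM in organoids, where it did not meet the filter. Cflar, which encodes the Casp8 regulator cFLIP, was at 37.7 to 56.0 CPM in organoids, 87.8 to 109.8 CPM in m-ICc12 cells and 30.7 to 34.8 CPM in MEFs. m-ICc12 cells were thus the highest of the 3 cell types for Cflar, with a log2 difference of −1.05 between organoids and them (edgeR adjusted p = 2.4e-06).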

How the data were processed

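RNA-seq counts of 27 libraries were used. Per the labels and the methods, the authors aligned the trimmed reads to GRCm38 with STAR and deposited whole-number counts per gene for 22524 genes, without normalization. The sources differ on the counting tool (GenomicRanges or featureCounts) and on whether the kit kept strand, and do not say how strand and reads aligning to several places were treated, which bears on Casp9 and its antisense neighbours.

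Groups came from the sample labels. Since these disagree with the name codes of the data in all 12 treated cultures, differences are given by label. The members, the lists of partner genes and the markers were chosen with earlier results of these data known. The rule for named genes was the 7 members, genes of the lists where a result needed a value, and the 3 genes with the highest Pearson r to a member over the organoid libraries. Other caspase genes with a row in the tables (10 in all) are not reported here. Symbols and exon lengths came from GENCODE vM21 (22214 identifiers matched).

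Counts were compared with edgeR 4.0.16 in R 4.3.3, using TMM normalization, genes with 10 or more counts in 50% or more of a group's libraries, the quasi-likelihood F-test with no covariate, Benjamini-Hochberg adjustment over all genes tested and a call at an adjusted p under 0.05. Standard errors were derived from the F statistic. CPM were scaled over all 27 libraries, so that fits and CPM can differ slightly. P-values for m-ICc12 cells measure the spread between cultures of 1 line, which may be technical. The labels name no source of the MEFs, so their spread may be technical too. Organoid p-values rest on the spread between mice, with 3 cohoused littermates per facility. The fits were also run on simulated counts in which 200 genes were changed, and the outcome is not reported here. Tables were made with Python 3.11.15 and pandas 2.3.3.

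The 2 organoid libraries of a culture come from the same mouse. Their deviations from the group means correlated with r = 0.0583 to 0.26, and 7 of the 9 cultures exceeded every other culture's value. The block on the culture changed no call of a member. Alternatives were DESeq2 1.42.0, all genes with at least 1 count, all 27 libraries in 1 fit, a block on the culture, facility as a covariate, the libraries labelled TNF-treated for the cell types, and leaving out each culture in turn. Levels with the length of the longest coding transcript were added after the data were seen.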

Additional observations from a re-analysis of the deposited data

Results flagged for a closer look

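Casp12 was far from the other libraries in 2 of the 14 organoid groups of a gene and a label that were examined. Chance sets about 1 in 20 groups apart for ordinary values, a rate that was not tested for genes with most libraries at 0, where any library above 0 stands apart. In the organoid libraries labelled untreated, culture Z917 was at 1.46 CPM (46 counts), while 7 of the other 8 were at 0 and Z909 was at 0.0343 CPM. In those labelled TNF-treated, culture Z912 was at 0.416 CPM (13 counts), while 7 of the other 8 were at 0 and Z919 was at 0.0563 CPM. The second library of Z917 and that of Z912 were at 0. The fibroblast markers, whose cell type had the most Casp12 in these data, summed to 32.4 CPM in Z917 labelled untreated. They summed to 13.5 CPM in Z912 labelled TNF-treated, against 12.4 to 32.4 CPM over all organoid libraries. Of these markers, Col1a1 reached at most 4.57 CPM and Col1a2 4.53 CPM in the organoid libraries labelled untreated. The part of the fibroblast markers in the Casp12 levels was not tested.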

How the results depend on the processing

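Of 754 alternative values of the members' log2 differences, 685 kept their direction and their side of the threshold, and none of the 60 that changed direction was called. The calls of Casp4 between the organoid labels and of Casp1 between organoids and m-ICc12 cells held under each alternative run. The count of members called between organoids and m-ICc12 cells fell from 5 (4 without Casp12, which met the count filter in 1 group only) to 3 with the libraries labelled TNF-treated, where Casp6 was not called. Without M1 the count between the m-ICc12 labels was 1, Casp4 (0 to 1 over the cultures left out). The call of Casp12 between m-ICc12 cells and MEFs was lost with all 27 libraries in 1 fit (edgeR adjusted p = 0.36). The causes were not tested. Over all genes, the called number was 168 between the organoid labels (397 with the culture as a replicate block, 139 with all 27 libraries), 13 between the m-ICc12 labels (46 by DESeq2, 30 with all genes, 29 with all 27 libraries, 6 with the replicate block, and 93 without M2), 21 for the interaction of label and cell type (71 by DESeq2, 103 with the replicate block, 6 with all 27 libraries, and 11 to 40 over the cultures left out), 4 for GF against SPF organoids (21 by DESeq2, 29 with all 27 libraries), and 0 for SR against SE organoids (8 by DESeq2, 5 with all genes, 2 with all 27 libraries, 1 with the libraries labelled TNF-treated, and 35 without Z909). In m-ICc12 cells the culture numbers did not pair the libraries (r = 0.00732, −0.00667 and 0.0925), and the block changed no member's call there.

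Differences that changed sign were small or imprecise. Casp6 between the organoid labels was 0.0053 with the replicate block and 0.0035 with the facility as a covariate, and the interaction of label and germ-free origin for Casp8 was 0.0053 with the replicate block. Casp8 between organoids and m-ICc12 cells was −0.036 in DESeq2 and −0.022 with all 27 libraries. With the libraries labelled TNF-treated, Casp9 between organoids and m-ICc12 cells was −0.011, and Casp2 and Casp9 between GF and SPF organoids were −0.032 and −0.14. With 1 culture at a time left out, 22 differences took both signs. For the organoid labels these ranges were −0.054 to 0.055 for Casp6 and −0.081 to 0.016 for Casp9. For the m-ICc12 labels these ranges were −0.34 to 0.019 for Casp9 and −0.14 to 1.26 for Casp1. For the interaction of label and cell type these ranges were −5.66 to 1.12 for Casp12, −0.072 to 0.13 for Casp2, −0.062 to 0.28 for Casp9, −1.37 to 0.30 for Casp1 and −1.08 to 0.083 for Casp4. For the interaction of label and germ-free origin these ranges were −0.14 to 0.15 for Casp1, −0.10 to 0.046 for Casp8, −0.21 to 0.22 for Casp2 and −0.12 to 0.31 for Casp6. For organoids against m-ICc12 cells the range was −0.032 to 0.051 for Casp8. For m-ICc12 cells against MEFs the range was −0.032 to 0.27 for Casp6. For GF against SPF organoids these ranges were −0.032 to 0.15 for Casp8, −0.22 to 0.15 for Casp9, −0.076 to 0.14 for Casp2 and −0.12 to 0.053 for Casp1. For SR against SE organoids these ranges were −0.28 to 0.13 for Casp4, −0.011 to 0.21 for Casp1 and −0.056 to 0.22 for Casp9. Casp12 in organoids and Casp1 and Casp4 in MEFs lie near the detection floor, which limits the sizes of their differences.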
